A study of Mus musculus with 6 samples.

Results

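Chemokine and chemoattractant receptors were examined in splenic monocytes of mice with (IL-4Rα+/+) and without (IL-4Rα-/-) the IL-4 receptor α chain. The 9 receptor genes *Ccr1*, *Ccr7*, *Ccr9*, *Cxcr2*, *Cxcr3*, *Cxcr4*, *Ccrl2*, *Cmklr1* and *C5ar1* were taken from a list by name, out of the 55421 genes that were counted. The IL-4Rα-/- mice lack the receptor chain in all cells, so other cell types of these animals are deficient as well, and the IL-4Rα+/+ mice are their wild-type controls. Both genotypes were on a C57BL/6 background, received no treatment, and gave 3 libraries each, 1 per mouse. Untouched monocytes were obtained by negative selection, in which antibodies and magnetic beads remove other leukocytes, and their polyadenylated RNA was sequenced.

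All 9 genes encode receptors that span the membrane 7 times. The classical chemokine receptors bind small secreted chemokines, signal through inhibitory G proteins and steer cells along a gradient, after which G protein-coupled receptor kinases (GRKs) and arrestins switch them off. C5ar1 binds the complement fragment C5a, Cmklr1 binds chemerin, and Ccrl2 binds chemerin without signalling and presents it to other cells. In the spleen such receptors hold monocytes in the organ, release them into the blood or call them to inflamed tissue, and IL-4 acts on these cells through IL-4Rα and the transcription factor STAT6.

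Each library held 26807281 to 29033297 reads on genes. Levels are given as TMM CPM, that is, the count scaled to the size of its library (CPM) after edgeR's TMM method had set the libraries against each other. The targeted gene *Il4ra* was lower in each IL-4Rα-/- library, at 137, 128 and 177 CPM in IL-4Rα+/+ replicates 1, 2 and 3 and 27.9, 79.4 and 31.8 CPM in IL-4Rα-/- replicates 1, 2 and 3. The counts cover the whole gene, so reads from parts of it that the targeting left in place would be included. IL-4Rα-/- replicate 2 had more *Il4ra* than replicates 1 and 3 of its genotype, and the reason was not tested. Leaving this library out turned the direction of several receptors, as given below. The monocyte marker *Csf1r*, the receptor for macrophage colony-stimulating factor, lay between 2230 and 3090 CPM, and 12 monocyte markers together made up 8640 to 11300 CPM in the 6 libraries. Markers of other cells were present too, so IL-4Rα+/+ and IL-4Rα-/- monocytes below means the whole preparation. The 8 red pulp macrophage markers summed to 2920 to 3420 CPM in IL-4Rα+/+ and to 3850 to 5940 CPM in IL-4Rα-/- libraries, the 10 erythroid markers to 58.1 to 129 and to 169 to 424 CPM, and the 8 basophil and mast cell markers to 8.94 to 24.5 and to 31.9 to 65.4 CPM, each without overlap of the genotypes. In none of the marker lists was any gene at 3 counts or fewer in every library. In bulk RNA, fewer cells of a type and less RNA per cell cannot be told apart.

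None of the 9 receptors was called different between the genotypes after correction for multiple testing. With edgeR's quasi-likelihood test and Benjamini-Hochberg adjustment over 13849 genes, at the adjusted p-value of 0.15 that the study used, 0 of the 9 receptors were called, and 0% of all genes tested were. The targeted gene *Il4ra* was not called either, with an adjusted p-value of 0.618 by edgeR, against 0.0111 by DESeq2. The absence of calls in the edgeR test therefore does not show that the receptors were unchanged. All 9 had enough reads to be tested. At an unadjusted p-value under 0.05 there was 1 receptor, *Cxcr2*, which was higher in IL-4Rα-/- monocytes, against 8.09% of all genes in either direction and 3.72% in that direction. *Cxcr2* was also the only 1 of the 9 whose genotypes did not overlap, against 15.5% of all genes. These shares put 1 of 9 near the background. DESeq2, the tool of the study, called 0 of the 9 at the same threshold, where 0.571% of all genes passed, and gave 1 receptor, again *Cxcr2*, at an unadjusted p-value under 0.05, where 8.07% of all genes did. The edgeR log2 fold changes (IL-4Rα-/- over IL-4Rα+/+) ran from -0.60 to 1.70 with a median of 0.02, close to the median of 0.01 over all genes. Of the 9, 4 were below 0, against 48.5% of all genes.

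**Figure D1:**
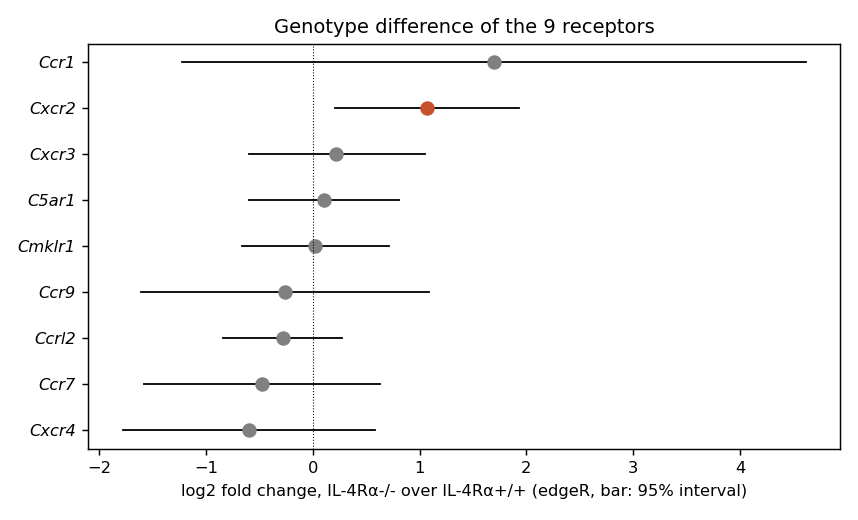
Log2 fold change (IL-4Rα-/- over IL-4Rα+/+, horizontal axis) of each receptor from edgeR, with bars for the 95% interval over 3 mice per genotype. The interval of *Cxcr2* (coloured), from 0.21 to 1.93, lies above 0, and those of the other 8 receptors cover 0.

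The stretches before the transcription start were read from RefSeq (GRCm38.p6) to show which members carry motifs of factors that act in this setting. For 8 of the 9 genes, 10 windows of 250 bases before an annotated start were searched, and no window was used for *Ccr7*. The palindromic STAT motifs TTCNNNNGAA, the form that STAT6 prefers, and TTCNNNGAA were in none of the 10 windows, against 5.85% and 7.02% of 32851 windows of all genes. GAGGAA, the core of the sites of the monocyte factor PU.1, was searched on both strands (TTCCTC on the other). It was in 4 of the 10 windows, against 23.3% of all windows. These 4 are shown on the strand of the gene with the match in capitals.
Ccr1, minus strand of chr9:123968802-123968831: agatgattttGAGGAAcaggatatgagttc
Cmklr1, minus strand of chr5:113643682-113643711: gattggctctGAGGAAcacagtatagacca
Cxcr2, plus strand of chr1:74153903-74153932: agcctagccaTTCCTCtataggacacctcc
Cxcr3, minus strand of chrX:101734148-101734177: gccgtgaaatcttcacTTCCTCtgttcact
A match of letters is a description of the window and was not tested for binding.

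*Ccr1*, a receptor for inflammatory chemokines such as Ccl3, Ccl5, Ccl6 and Ccl9, was the most variable of the receptors. Its level was 6.11, 12.1 and 48.8 CPM in IL-4Rα+/+ replicates 1, 2 and 3 and 10.5, 187 and 19.9 CPM in IL-4Rα-/- replicates 1, 2 and 3. The genotypes overlapped, and IL-4Rα-/- replicate 2 stood far above the other 5 libraries, 30.7-fold above the lowest. A ratio of highest to lowest library smaller than this was found in 99.1% of all genes tested. The means were 22.4 ± 23.1 CPM (SD, n = 3) in IL-4Rα+/+ and 72.6 ± 99.6 CPM (SD, n = 3) in IL-4Rα-/- monocytes. The difference between the genotypes on the log2 scale, 1.70 (standard error 1.22, 95% interval -1.22 to 4.62), had an adjusted p-value of 0.695 by edgeR's quasi-likelihood test. Without IL-4Rα-/- replicate 2 it was -0.56 (standard error 0.86), so its direction came from that library.

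*Ccr1* (chromosome 9 of GRCm38, 123962124 to 123968692, minus strand) lies near *Ccr3* and *Ccr2*, within 151 kb from the start of *Ccr1* to the end of *Ccr2*. *Ccr2*, the receptor by which Ly6C high monocytes leave the bone marrow, had 380, 1050 and 1670 CPM in IL-4Rα+/+ and 826, 2010 and 979 CPM in IL-4Rα-/- replicates 1, 2 and 3. Like *Ccr1*, it was highest in IL-4Rα-/- replicate 2 and lowest in IL-4Rα+/+ replicate 1, and so was *F13a1*, a marker of Ly6C high monocytes, at 2120 and 325 CPM. *Ace*, a marker of Ly6C low monocytes, was the reverse, at 710 CPM in IL-4Rα-/- replicate 2 and 2770 CPM in IL-4Rα+/+ replicate 1. Among the summed marker lists, Pearson's r with *Ccr1* was highest for the neutrophil markers, at 0.969, as a description over 6 libraries that share their total. Of that list, *Mmp8* was highest in IL-4Rα-/- replicate 2, at 305 CPM, while *Retnlg* was highest in IL-4Rα+/+ replicate 2, at 4.02 CPM. The part of the monocyte subsets or of neutrophils in the spread of *Ccr1* was not tested. *Ccr3*, between *Ccr1* and *Ccr2*, did not follow the order of *Ccr1*, at 52.7, 67.1 and 66.9 CPM in IL-4Rα+/+ and 137, 89.7 and 73.4 CPM in IL-4Rα-/- libraries.

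**Figure D2:**
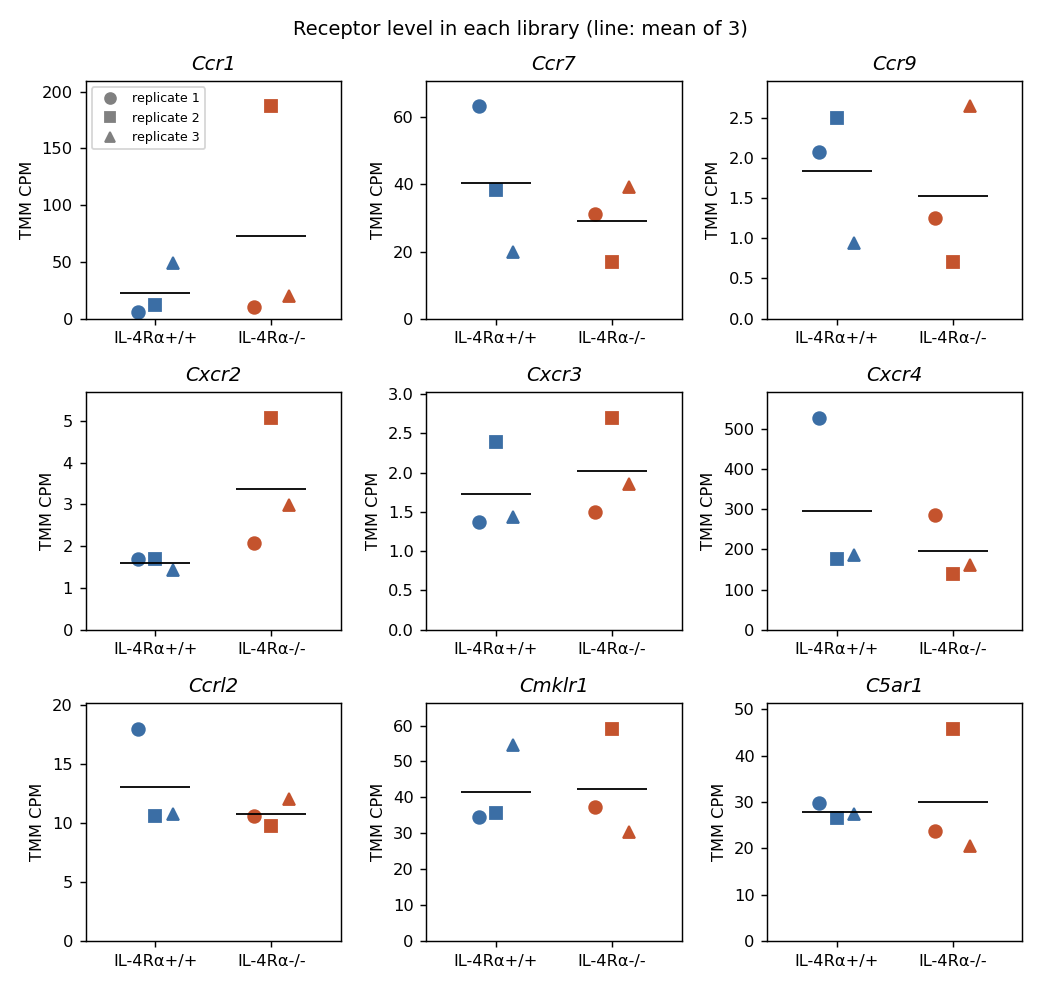
Level of each receptor in TMM CPM (vertical axes, each from 0) in the 3 IL-4Rα+/+ and 3 IL-4Rα-/- libraries, with the shape giving the replicate number and the line the mean of 3. *Cxcr2* has every IL-4Rα-/- library above every IL-4Rα+/+ library, while *Ccr1*, *C5ar1* and *Cmklr1* peak in IL-4Rα-/- replicate 2, and *Cxcr4*, *Ccr7* and *Ccrl2* peak in IL-4Rα+/+ replicate 1.

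*Ccr7* guides mature dendritic cells and naive T cells to the Ccl19 and Ccl21 of lymphoid tissue. It had 63.2, 38.2 and 19.8 CPM in IL-4Rα+/+ replicates 1, 2 and 3 and 31.3, 16.8 and 39.3 CPM in IL-4Rα-/- replicates 1, 2 and 3. The genotypes overlapped, with IL-4Rα+/+ replicate 1 highest and IL-4Rα-/- replicate 2 lowest. Its log2 fold change was -0.47 (standard error 0.46, 95% interval -1.58 to 0.63, adjusted p-value 0.762 by edgeR) and became 0.01 without IL-4Rα+/+ replicate 1. *Fscn1* and *Cacnb3*, markers of mature dendritic cells, put the 6 libraries in the same order as *Ccr7* did, with *Fscn1* at 265, 159 and 94.2 CPM in IL-4Rα+/+ and 153, 73.8 and 168 CPM in IL-4Rα-/- libraries. Other genes of the dendritic cell list did not follow *Ccr7*. *Clec10a* was lowest in IL-4Rα+/+ replicate 1, at 35.4 CPM, and highest in IL-4Rα-/- replicate 2, at 64.7 CPM, and *Flt3* and *Cd209a* were lowest in IL-4Rα+/+ replicate 1, at 65.4 and 66.5 CPM. The 12 dendritic cell markers summed to 421 to 663 CPM in IL-4Rα+/+ and to 361 to 543 CPM in IL-4Rα-/- libraries. Of the 12, 10 had a log2 fold change below 0, against 48.5% of all genes. At an unadjusted p-value under 0.05 (edgeR), 1 was lower, against 4.37% of all genes. The part of dendritic cells in the level of *Ccr7* was not tested.

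*Ccr9* binds Ccl25 and brings T cells and plasmacytoid dendritic cells to the gut and thymus. It was scarce, with 59, 69 and 25 counts in IL-4Rα+/+ and 35, 20 and 78 counts in IL-4Rα-/- replicates 1, 2 and 3, or 0.701 to 2.64 CPM. The highest and the lowest library were both IL-4Rα-/-. Its log2 fold change, -0.26 (standard error 0.56, 95% interval -1.61 to 1.09), had an adjusted p-value of 0.883 by edgeR, and at 20 counts the counting error alone was 22.4% of the value. The 12 T and NK cell markers summed to 102, 152 and 55.8 CPM in IL-4Rα+/+ and to 108, 52.3 and 136 CPM in IL-4Rα-/- libraries, so IL-4Rα-/- replicate 2 and IL-4Rα+/+ replicate 3 were the lowest libraries for these markers and for *Ccr9*. The 10 plasmacytoid dendritic cell markers summed to 219, 226 and 174 CPM in IL-4Rα+/+ and to 173, 163 and 216 CPM in IL-4Rα-/- libraries, also lowest in IL-4Rα-/- replicate 2. As a description over 6 libraries that share their total, Pearson's r with *Ccr9* was 0.959 for the plasmacytoid and 0.923 for the T and NK cell list. It was also 0.892 for the conventional and mature dendritic cell list and -0.883 for the neutrophil list. Within the plasmacytoid list, *Siglech* was lowest in IL-4Rα-/- replicate 2, at 1.3 CPM, as *Ccr9* was. *Tcf4*, the largest part of the sum, was highest in IL-4Rα+/+ replicate 3, at 116 CPM, and *Klk1* in IL-4Rα-/- replicate 2, at 4.97 CPM. None (0) of the 12 T and NK cell markers or of the 9 plasmacytoid markers tested had an unadjusted p-value under 0.05 (edgeR), against 8.09% of all genes. The part of such cells in the counts of *Ccr9* was not tested. The annotated gene spans 123678439 to 123784330 of chromosome 9 and overlaps 6 other genes, 4 of them on the opposite strand, so its counts are the least certain of the 9. Which strand STAR's counts refer to was not stated.

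*Cxcr2*, the receptor for Cxcl1, Cxcl2 and related chemokines that draw neutrophils, was higher in IL-4Rα-/- monocytes at the unadjusted threshold. It had 48, 47 and 38 counts in IL-4Rα+/+ and 58, 145 and 88 counts in IL-4Rα-/- replicates 1, 2 and 3, which is 1.69, 1.70 and 1.43 CPM against 2.07, 5.08 and 2.98 CPM. Every IL-4Rα-/- library lay above every IL-4Rα+/+ library, with the narrowest gap between IL-4Rα+/+ replicate 2 and IL-4Rα-/- replicate 1. The means of 1.61 ± 0.15 CPM (SD, n = 3) and 3.38 ± 1.54 CPM (SD, n = 3) differed 2.10-fold. This gave a log2 fold change of 1.07 (standard error 0.36, 95% interval 0.21 to 1.93), with an unadjusted p-value of 0.0222 and an adjusted p-value of 0.618 by edgeR's quasi-likelihood test, 0.337 with DESeq2. A two-sided exact permutation test of the CPM gave p = 0.1, the smallest that 3 mice against 3 allow. Without IL-4Rα-/- replicate 2 the log2 fold change was 0.65 (standard error 0.30, unadjusted p = 0.0713 by edgeR), and without IL-4Rα+/+ replicate 3 it was 0.99 (standard error 0.43, unadjusted p = 0.0614 by edgeR).

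Because *Cxcr2* is a hallmark receptor of neutrophils, their markers were set beside it. Of 12 neutrophil markers 10 were tested. Of these, 8 had a log2 fold change above 0 and 2 below, against 48.5% of all genes below 0. At an unadjusted p-value under 0.05 (edgeR), 4 were higher in IL-4Rα-/- libraries, against 3.72% of all genes. These were *S100a8*, *S100a9*, *Camp* and *Ngp*, with log2 fold changes of 1.93 to 2.13 and with overlap of the genotypes. DESeq2 called 1 marker, *Camp*, at an adjusted p-value of 0.123, where 0.571% of all genes passed 0.15. The list summed to 391 to 743 CPM in IL-4Rα+/+ and to 510 to 1090 CPM in IL-4Rα-/- libraries, with overlap. Of this sum, *Csf3r*, with a log2 fold change of 0.01, made up 299 to 438 CPM. *S100a8*, a subunit of calprotectin, had 9.66, 4.45 and 18.0 CPM in IL-4Rα+/+ and 34.2, 91.3 and 14.7 CPM in IL-4Rα-/- replicates 1, 2 and 3, so the library with the most *S100a8* was also the library with the most *Cxcr2*. IL-4Rα-/- replicate 3 had less *S100a8* than IL-4Rα+/+ replicate 3 and more *Cxcr2*. *Ly6g*, which defines mature neutrophils, had 0, 2 and 2 counts in IL-4Rα+/+ and 6, 9 and 1 counts in IL-4Rα-/- replicates 1, 2 and 3. *Cxcr1*, the sister receptor of *Cxcr2* on neutrophils, was at 0 to 2 counts. The part of neutrophil RNA in the difference of *Cxcr2* was not tested.

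*Cxcr3*, the receptor for the interferon-induced chemokines Cxcl9 and Cxcl10 on T and NK cells, was scarce too. It had 39, 66 and 38 counts in IL-4Rα+/+ and 42, 77 and 55 counts in IL-4Rα-/- replicates 1, 2 and 3, or 1.37 to 2.39 and 1.5 to 2.70 CPM. The genotypes overlapped, and replicate 2 was the highest of each. Their difference on the log2 scale was 0.22 (standard error 0.35, 95% interval -0.60 to 1.05, adjusted p-value 0.841 by edgeR).

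*Cxcr4*, which binds Cxcl12 and retains leukocytes in bone marrow and spleen, was the most abundant of the 9. It had 528, 175 and 185 CPM in IL-4Rα+/+ replicates 1, 2 and 3 and 286, 139 and 161 CPM in IL-4Rα-/- replicates 1, 2 and 3. IL-4Rα+/+ replicate 1 stood alone, and IL-4Rα-/- replicate 1 was second. The means were 296 ± 201 CPM (SD, n = 3) and 195 ± 79.1 CPM (SD, n = 3), or -0.60 on the log2 scale (standard error 0.49, 95% interval -1.78 to 0.58, adjusted p-value 0.728 by edgeR). Without IL-4Rα+/+ replicate 1 it was 0.12 (standard error 0.32).

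The chemerin receptors differed little between the genotypes. *Ccrl2*, the presenting receptor, had 18.0, 10.6 and 10.8 CPM in IL-4Rα+/+ and 10.6, 9.74 and 12.0 CPM in IL-4Rα-/- replicates 1, 2 and 3. Apart from IL-4Rα+/+ replicate 1 the libraries were within a narrow band, and the log2 fold change went from -0.28 (standard error 0.23, adjusted p-value 0.728 by edgeR) to 0.01 without it. *Cmklr1*, the signalling receptor, had 34.5, 35.5 and 54.7 CPM in IL-4Rα+/+ and 37.2, 59.1 and 30.4 CPM in IL-4Rα-/- replicates 1, 2 and 3. Its log2 fold change of 0.02 had a 95% interval of -0.66 to 0.71, so that a change smaller than about these bounds in either direction could not be resolved with 3 mice per genotype. *Rarres2*, the gene of chemerin itself, had 3 to 9 counts in each library and was not tested.

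*C5ar1*, the C5a receptor of myeloid cells, had 29.8, 26.5 and 27.3 CPM in IL-4Rα+/+ and 23.7, 45.8 and 20.4 CPM in IL-4Rα-/- replicates 1, 2 and 3. The IL-4Rα+/+ libraries lay close together, and the IL-4Rα-/- libraries fell on both sides of them. On the log2 scale the genotypes differed by 0.11 (standard error 0.30, 95% interval -0.60 to 0.81, adjusted p-value 0.916 by edgeR). Without IL-4Rα-/- replicate 2 it was -0.34 (standard error 0.11, unadjusted p = 0.0252 and adjusted p = 0.851 by edgeR), with the other 2 IL-4Rα-/- libraries below all 3 IL-4Rα+/+ libraries. *C5ar2*, the second C5a receptor, was also highest in IL-4Rα-/- replicate 2, with 404 counts against 175 to 249 in the other libraries.

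**Figure D3:**
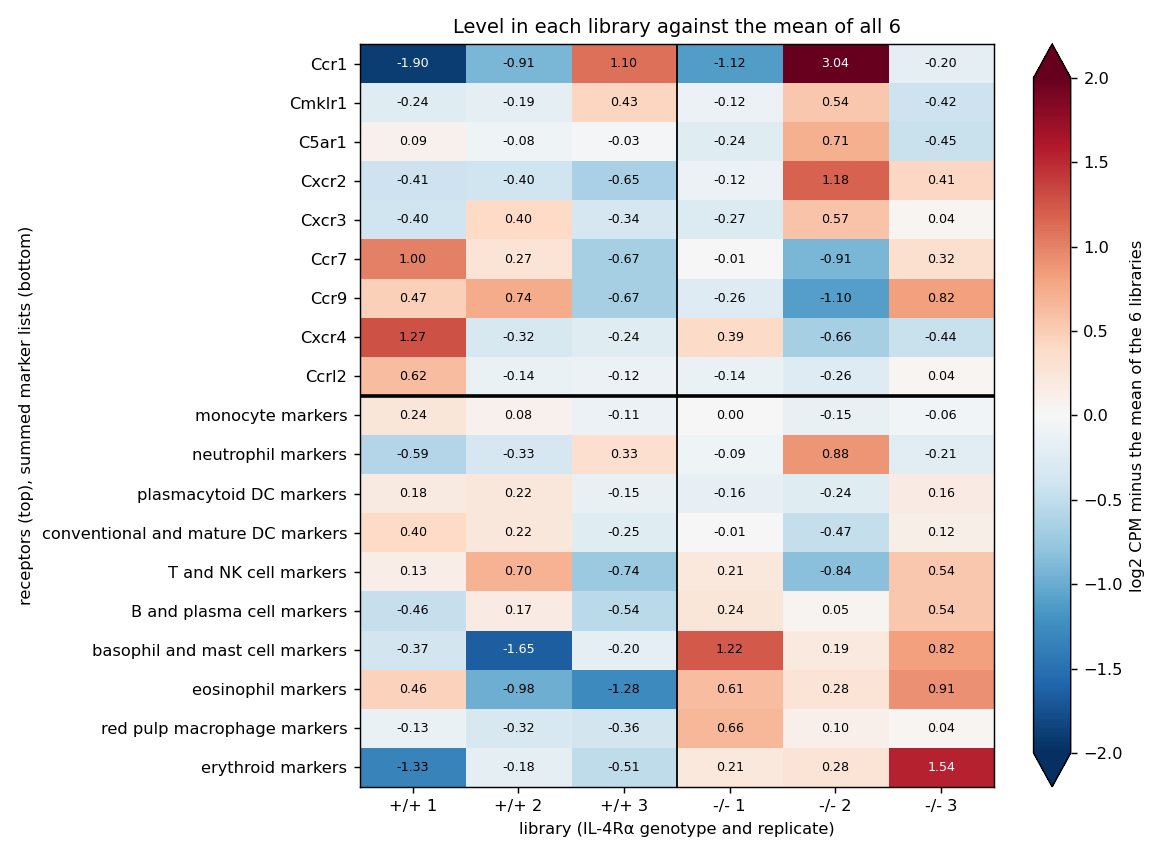
Log2 CPM of the 9 receptors (top) and of the summed marker lists (bottom) in each library, minus the mean of the 6 libraries, with red above and blue below that mean. *Ccr1* reaches 3.04 in IL-4Rα-/- replicate 2 and -1.90 in IL-4Rα+/+ replicate 1, where *Ccr7* stands at -0.91 and 1.00.

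Across the 6 libraries the receptors fell into opposite patterns that crossed the genotypes. *Ccr1* and *Cmklr1* were highest in IL-4Rα-/- replicate 2 and second highest in IL-4Rα+/+ replicate 3. *Ccr7* and *Ccr9* were lowest in IL-4Rα-/- replicate 2 and second lowest in IL-4Rα+/+ replicate 3. As a description over 6 libraries, which share their total, Pearson's r of log2 CPM was 0.846 between *Ccr1* and *Cmklr1*, 0.853 between *Ccr7* and *Ccr9*, and -0.905 between *Ccr1* and *Ccr7*. Of all genes tested other than the 9, those whose log2 CPM followed a receptor best over the 6 libraries were *Inpp5a* (r = 0.999) and *Gm44751* (r = 0.997) for *Ccr1*, *Mmp2* (r = 0.995) and *Net1* (r = 0.994) for *Ccr7*, *Ccdc59* (r = 0.998) and *P2ry10* (r = 0.995) for *Ccr9*, and *Ghdc* (r = 0.991) and *Hps4* (r = 0.984) for *Cxcr2*. For *Cxcr3* they were *Tmem251* (r = 0.992) and *Mmp9* (r = 0.991), for *Cxcr4* *Nuak2* (r = 0.995) and *Cdkn1b* (r = 0.993), for *Ccrl2* *Fxr2* (r = 0.987) and *Prr14* (r = 0.985), for *Cmklr1* *Dffa* (r = 0.996) and *Ptgfrn* (r = 0.993), and for *C5ar1* *Fbxo34* (r = 0.987) and *Clk2* (r = 0.982). With 6 libraries and 13849 genes, such values are reached by the best of many.

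**Figure D4:**
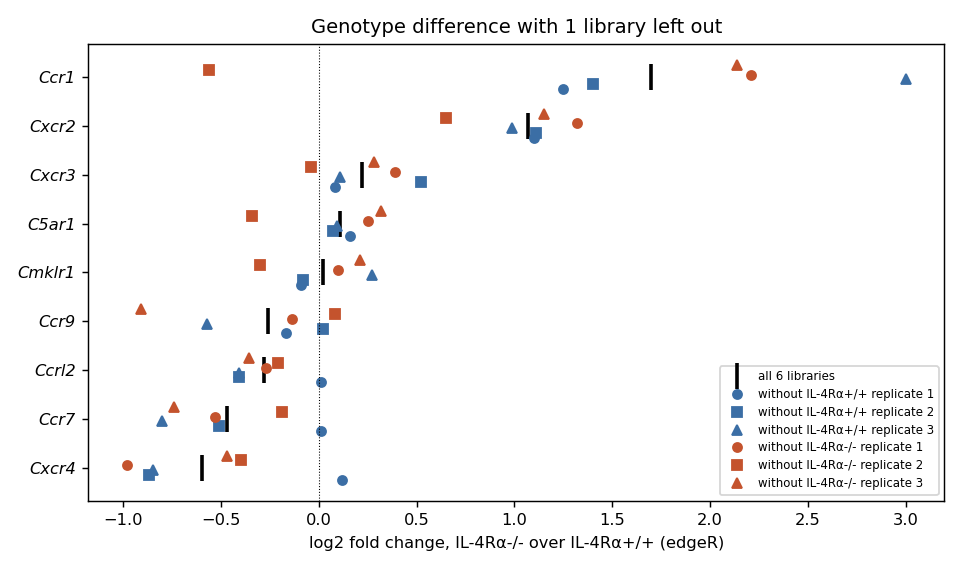
Log2 fold change of each receptor with all 6 libraries (black bar) and with 1 library left out (blue for IL-4Rα+/+, orange for IL-4Rα-/-, shape for the replicate number). *Ccr1*, *Cxcr3*, *C5ar1* and *Cmklr1* cross to below 0 without IL-4Rα-/- replicate 2, and *Cxcr4*, *Ccr7* and *Ccrl2* to above 0 without IL-4Rα+/+ replicate 1, while *Cxcr2* stays between 0.65 and 1.32.

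Compared per kilobase of exons, the receptors covered a wide range. The median over the 6 libraries was 99.4 CPM per kb for *Cxcr4*, which was above every other member in each library. It was followed by *Ccr7* at 17.6, *Cmklr1* at 10.7, *C5ar1* at 10.5, *Ccr1* at 5.64 and *Ccrl2* at 4.12 CPM per kb. Each of these neighbours overlapped the next in range and was above it in 4 of 6 libraries, so their order was not set beyond the spread. *Cxcr3* at 0.97 and *Cxcr2* at 0.619, which overlapped, and *Ccr9* at 0.162 CPM per kb lay below all of these in every library. The value of *Ccr9* is lowered by its long gene model of 10260 bp.

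**Figure D5:**
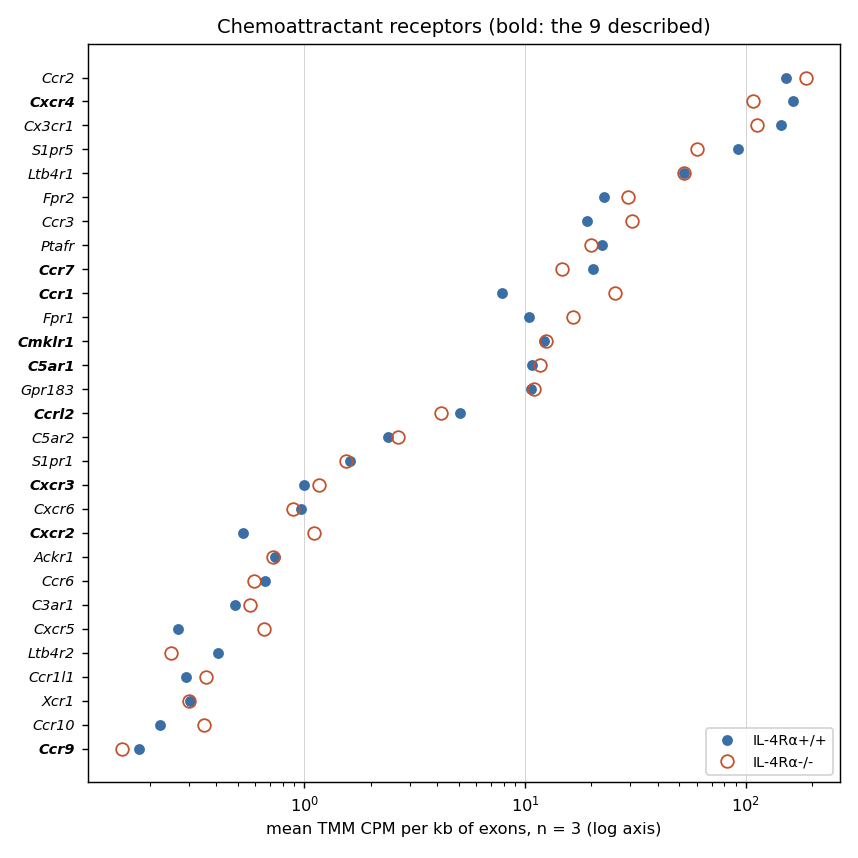
Mean TMM CPM per kilobase of exons (log axis, n = 3 per genotype) of the 9 described receptors and 20 further chemoattractant receptors, with filled points for IL-4Rα+/+ and open points for IL-4Rα-/- mice and the 9 in bold. *Cxcr4* stands beside *Ccr2* and *Cx3cr1* at the top, and *Ccr9* is at the bottom.

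Of 29 further chemokine and chemoattractant receptors, 21 were tested. At an unadjusted p-value under 0.05, 1 of the 21 (4.76%) was higher and 0 were lower in IL-4Rα-/- monocytes (edgeR), near the 3.72% of all genes that were higher and under the 8.09% in either direction. None was called, and DESeq2 called 0. The gene that passed was *Ccr3*, the eotaxin receptor of eosinophils and basophils, with means of 62.2 ± 8.23 CPM (SD, n = 3) in IL-4Rα+/+ and 100 ± 33.1 CPM (SD, n = 3) in IL-4Rα-/- monocytes. Its log2 fold change was 0.69 (standard error 0.24, unadjusted p = 0.0241 and adjusted p = 0.618 by edgeR) and was 0.39 without IL-4Rα-/- replicate 1, the library with the most *Ccr3*, and 0.58 (unadjusted p = 0.0778 by edgeR) without IL-4Rα+/+ replicate 1. IL-4Rα-/- replicate 1 also had the highest summed basophil and mast cell markers, 65.4 CPM, and the highest red pulp macrophage markers, 5940 CPM. The remaining libraries did not keep one order. IL-4Rα-/- replicate 2 had more *Ccr3* than replicate 3 and fewer basophil and mast cell markers, 31.9 against 49.4 CPM. IL-4Rα+/+ replicate 1 had the least *Ccr3*, 52.7 CPM, and the most red pulp macrophage markers of its genotype, 3420 CPM. At an unadjusted p-value under 0.05 (edgeR), 7 of the 7 basophil and mast cell markers tested and 4 of the 8 red pulp macrophage markers were higher in IL-4Rα-/- libraries. Of all genes, 3.72% were higher. The 6 eosinophil markers summed to 6.61 to 22 CPM in IL-4Rα+/+ and to 19.5 to 30.1 CPM in IL-4Rα-/- libraries, with overlap. Of the 5 tested, 4 had a log2 fold change above 0 and 1, *Siglecf*, was at -0.56, against 48.5% of all genes below 0. At an unadjusted p-value under 0.05 (edgeR), 1 of the 5, *Prg2*, was higher, against 3.72% of all genes. It had 2.3 to 10.4 CPM in IL-4Rα+/+ and 11.8 to 16 CPM in IL-4Rα-/- libraries. The part of these cells in the level of *Ccr3* was not tested. The genotypes did not overlap for 2 of the 21, against 15.5% of all genes. *Ccr1l1* was the other receptor without overlap, at 8 to 10 counts in IL-4Rα+/+ and 11 to 13 counts in IL-4Rα-/- libraries (log2 fold change 0.29, standard error 0.32).

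The further receptors with the highest level per kilobase were *Ccr2*, *Cx3cr1* and *S1pr5*, at 170, 128 and 76.5 CPM per kb over all libraries, against 136 for *Cxcr4*. *Cx3cr1*, the fractalkine receptor of patrolling monocytes, differed by -0.36 on the log2 scale (standard error 0.25). *S1pr5*, which lets Ly6C low monocytes leave the bone marrow, differed by -0.62 (standard error 0.59). *S1pr5* ran from 372 CPM in IL-4Rα+/+ replicate 1 to 64.7 CPM in IL-4Rα-/- replicate 2, the opposite ends of the range of *Ccr1*.

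Of 20 ligands of the 9 receptors, 11 were tested and 0 had an unadjusted p-value under 0.05 (edgeR), against 8.09% of all genes. DESeq2 called 0, where 0.571% of all genes passed. The genotypes did not overlap for 1 of the 11, against 15.5% of all genes. This was *Ccl6*, a Ccr1 ligand made by myeloid cells. It had 563 ± 27.9 CPM (SD, n = 3) in IL-4Rα+/+ and 493 ± 60.2 CPM (SD, n = 3) in IL-4Rα-/- monocytes (log2 fold change -0.19, standard error 0.11). The Cxcr2 ligands *Cxcl1*, *Cxcl3* and *Cxcl5* had at most 5 counts in any library. *Ccl19*, *Ccl7* and *Cxcl11* had at most 7 counts.

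Below the receptors, 28 genes of the path from G proteins through GRKs, arrestins and PI3Kγ to Rac were all tested. At an unadjusted p-value under 0.05 (edgeR), 3 were lower and 0 higher in IL-4Rα-/- monocytes. This was 10.7% of the list, against 8.09% of all genes in either direction and 4.37% that were lower. Of the 28, 0 were called, and DESeq2 called 0. *Grk5*, a kinase that desensitizes receptors, had 205 ± 20.0 CPM in IL-4Rα+/+ and 158 ± 9.75 CPM in IL-4Rα-/- monocytes (SD, n = 3 each), or -0.38 on the log2 scale (standard error 0.10, unadjusted p = 0.00689 by edgeR), and its unadjusted p-value stayed under 0.05 in each of 12 alternatives. *Arrb1*, which encodes β-arrestin 1, had 326 ± 61.9 and 248 ± 22.4 CPM (SD, n = 3 each), or -0.39 on the log2 scale (standard error 0.15, unadjusted p = 0.0367 by edgeR). *Dock2*, the exchange factor that activates Rac in migrating leukocytes, had 592 ± 33.7 and 490 ± 31.5 CPM (SD, n = 3 each), or -0.27 on the log2 scale (standard error 0.08, unadjusted p = 0.0155 by edgeR). The genotypes did not overlap for 4 of the 28, a share below the 15.5% of all genes. These were the 3 genes above and *Rgs19*, a GTPase activator that shortens G protein signalling, which was higher in IL-4Rα-/- monocytes at 141 ± 10.8 against 125 ± 6.97 CPM (SD, n = 3 each) with an unadjusted p-value of 0.0936 by edgeR. Each had an adjusted p-value of 0.618 or above. The log2 fold change of *Arrb1* was -0.25 without IL-4Rα+/+ replicate 1 (unadjusted p = 0.105 by edgeR), and its unadjusted p-value was above 0.05 on leaving out any library but IL-4Rα+/+ replicate 3. *Dock2* had an unadjusted p-value of 0.0566 by edgeR without IL-4Rα+/+ replicate 2. With the trend of counts with exon length removed, *Arrb1* went to -0.32 (unadjusted p = 0.0562 by edgeR) and *Dock2* to -0.19 (unadjusted p = 0.032 by edgeR).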

How the data were processed

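Splenic monocytes of 6 mice were measured by RNA sequencing. Each mouse gave 1 library, and STAR 2.6.1a was used by the authors for alignment to GRCm38 and for the deposited raw counts per gene. Of all reads, 21.1% to 22.8% were not assigned to a single gene and were left out. These were unmapped, mapped to several places, lay on no gene or were ambiguous between genes. Symbols, positions and exon lengths came from GENCODE M21, in which 55240 of 55421 identifiers were found. The filter was filterByExpr (minimum count of 10) and the scaling TMM, both from edgeR 4.0.16 (R 4.3.3), whose quasi-likelihood F-test compared the genotypes with no covariate, with the interval of each log2 fold change from the same test. DESeq2 1.42.0 and limma 3.58.1 (voom) were alternatives. Correlations used log2 CPM with a prior count of 2. The steps were checked on simulated data.

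The receptors and gene lists were chosen with earlier results of these data known. Named genes were the 9 receptors, *Il4ra*, listed receptors, ligands and signalling genes with an unadjusted p-value under 0.05 or no overlap, the 3 further receptors with the highest level per length, and the 2 genes that followed each receptor best. Marker genes and genes named for low counts or for their place beside *Ccr1* were picked after their values were seen. The tested receptors include 1 that is counted in its list but not reported here. P-values measure the spread between mice. The replicate numbers were tested as a block. Libraries of the same number did not consistently deviate together from their groups (correlations over genes of 0.185, -0.271 and -0.296). No pairing by number was seen, but so few values cannot exclude it.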

Additional observations from a re-analysis of the deposited data

How the results depend on the processing

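Over 12 alternatives, the 9 receptors gave 108 log2 fold changes, of which 93 kept their direction and their side of an unadjusted p-value of 0.05. No receptor (0 of 9) had an adjusted p-value under 0.15 in any alternative, or under 0.05 in the main test. Of the 9, *Cxcr2* was the only one that kept its direction in all 12. The log2 fold change turned, without IL-4Rα-/- replicate 2, to -0.56 for *Ccr1*, 0.08 for *Ccr9*, -0.04 for *Cxcr3*, -0.30 for *Cmklr1* and -0.34 for *C5ar1*. Without IL-4Rα+/+ replicate 1 it turned to 0.01 for *Ccr7*, 0.12 for *Cxcr4*, 0.01 for *Ccrl2* and -0.09 for *Cmklr1*, without IL-4Rα+/+ replicate 2 to 0.02 for *Ccr9* and -0.08 for *Cmklr1*, and with the trend of counts with exon length removed to -0.03 for *Cmklr1*. Leaving out 1 library at a time gave at the other extreme 3.00 for *Ccr1*, -0.80 for *Ccr7*, -0.91 for *Ccr9*, 0.52 for *Cxcr3*, -0.98 for *Cxcr4*, -0.41 for *Ccrl2*, 0.27 for *Cmklr1* and 0.32 for *C5ar1*. The cause was not tested beyond the libraries left out.

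With the replicate block, 2 receptors had an unadjusted p-value under 0.05 in place of 1, the added one being *Cxcr4* (log2 fold change -0.47, unadjusted p = 0.0349 by edgeR), 0 of the further receptors did in place of 1, and 1 signalling gene in place of 3. Only 2 of the 6 libraries correlated best with their own number. Without the filter or with DESeq2, 2 further receptors passed. When 1 library was left out, receptors at an unadjusted p-value under 0.05 numbered 0 to 1, receptors without overlap 1 to 2, further receptors 1 to 2 and signalling genes 1 to 5. *Arrb1* lost the unadjusted threshold in 7 alternatives. Over all genes, DESeq2 called 80 and edgeR 0, and without 1 library 627 (IL-4Rα+/+ replicate 2) to 1724 (IL-4Rα+/+ replicate 3) genes had an unadjusted p-value under 0.05 against 1120. *Ccr9*, *Cxcr2* and *Cxcr3*, at 20 to 145 counts, are the receptors that depth limits most.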
